A study of Mus musculus with 6 samples.

Results

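MaLR elements (mammalian apparent LTR retrotransposons) are described here in ID8 cells, a line derived from the ovarian surface epithelium of C57BL/6 mice. The members were all rows that the authors' deposited table of repeats placed in the class LTR/ERVL-MaLR, read by name prefix as ORR1, MT and MLT. There were 62440 such rows of 773731 in the table, at 60016 loci, because a row is 1 repeat locus in 1 direction of reading. ORR1 gave 24417 rows, MT 27464 and MLT 10559. The table compares 3 libraries of the genotype Trp53-/- (Trp53_KO) with 3 of the genotype Trp53+/+ (Trp53_WT). All 6 libraries came from immortalized, untreated cells in asynchronous growth, and total RNA was sequenced from stranded libraries. Trp53 encodes the transcription factor p53, so the comparison asks how transcripts at these elements differ when p53 is lost. The labels do not say whether a genotype is 1 clone, nor whether replicates are separate cultures, so each p-value reflects only how much these 6 libraries vary, and that variation may be technical.

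MaLRs are nonautonomous LTR retrotransposons: they code for no reverse transcriptase of their own and are thought to have been copied by the enzymes of related ERVL elements. MT and ORR1 are rodent families with many young copies in the mouse, while MLT elements are older and are shared with other mammals, humans included. Their LTRs hold promoters and polyadenylation signals, MT LTRs are known as promoters in mouse oocytes, and some MaLR LTRs serve as alternative first exons of nearby genes.

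Gene totals lay between 15319956 and 19954170 counts per library, over 41327 genes. In the labelled knockout, Trp53 was lower by a log2 fold change of -1.95 ± 0.09 (SE) and Cdkn1a, a p53 target, by -4.67 ± 0.13, both with adjusted p-values (edgeR, Benjamini-Hochberg) of 2.7e-07 or smaller. Trp53_WT replicate 1 stood apart, with a chi-square per degree of freedom of 27.5 and 26.9 against the other 2 wild-type libraries, where those gave 2.01 between them and the knockouts 4.27 to 8.81. All 11 markers of ovarian surface epithelium were tested. In Trp53_KO 5 were higher and 4 lower, beside 14.1% and 16.1% of all genes tested. Their log2 fold changes (edgeR) ran from -8.93 ± 0.18 (SE) for Bnc1 to 8.04 ± 0.15 (SE) for Lrrn4, with Upk3b at 2.85 ± 0.09 (SE). Of the junction genes, Epcam had 0 counts in every library. Cdh1 was at 0.638 to 0.905 CPM (counts scaled to library size) in Trp53_KO and 0.536 to 0.878 in Trp53_WT. Markers Ptprc, Cd3e, Cdh5, Kdr, Foxl2, Cyp19a1, Zp3 and Ooep of immune, endothelial, granulosa and germ cells summed to at most 9 counts per genotype. Other members of these lists were detected at low levels: the oocyte gene Gdf9 had 24 counts in Trp53_KO and 17 in Trp53_WT, the granulosa cell gene Amh had 32 and 45, and the macrophage gene Lyz2 had 1 and 1. Cd68, of macrophages, was at 3.86 to 4.13 CPM in Trp53_KO and 4.70 to 5.15 in Trp53_WT, and Pecam1, of endothelium, was higher at 1.65 to 2.35 against 0.107 to 0.203. The fibroblast markers Dcn, Pdgfra and Col1a1 were all higher, with a summed level of 694 to 848 CPM in Trp53_KO and 226 to 287 in Trp53_WT. The part of these markers in the results on MaLR rows was not tested. In bulk RNA, fewer cells of a type and less RNA per cell cannot be told apart.

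RefSeq starts of 4 genes within a MaLR element are shown first, because there the element lies where a listed transcript begins. Each line gives the bases of the element before the start of the gene, 5′ to 3′ on the strand of the gene, from the promoter table of RefSeq (GRCm38.p6). Aim2, a cytosolic DNA sensor, has its RefSeq start in an ORR1E element, and the bases printed lie at chr1:173420412-173420603 on the + strand. Naip2 and Naip5 are receptors that detect bacterial proteins for an inflammasome. Both have their RefSeq start in an ORR1E element, printed from chr13:100202123-100202285 and chr13:100247337-100247421 on the - strand. In GENCODE the gene model of Naip5 begins at chr13:100246323, downstream of its ORR1E, so the 2 annotations differ there. Fblim1, which codes for a filamin-binding protein of cell adhesions, has 1 of its 2 listed starts in an MLT1F1 element opposite to the gene. The bases printed for Fblim1 lie at chr4:141606053-141606227, read on the - strand. Capitals mark the longest run of bases that Naip2 and Naip5 share, 34 bases, which ends 5 bases before the start of Naip2 and 12 before that of Naip5.
Aim2 ORR1E: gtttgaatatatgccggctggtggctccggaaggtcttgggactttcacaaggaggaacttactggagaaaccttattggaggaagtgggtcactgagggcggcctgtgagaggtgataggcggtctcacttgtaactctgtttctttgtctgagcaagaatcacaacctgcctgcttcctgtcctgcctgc
Naip2 ORR1E: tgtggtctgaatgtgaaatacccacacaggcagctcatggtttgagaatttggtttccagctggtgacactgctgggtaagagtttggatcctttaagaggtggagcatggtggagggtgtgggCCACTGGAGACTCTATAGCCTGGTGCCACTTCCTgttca
Naip5 ORR1E: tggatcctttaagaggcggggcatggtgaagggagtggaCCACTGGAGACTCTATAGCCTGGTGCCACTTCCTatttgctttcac
Fblim1 MLT1F1: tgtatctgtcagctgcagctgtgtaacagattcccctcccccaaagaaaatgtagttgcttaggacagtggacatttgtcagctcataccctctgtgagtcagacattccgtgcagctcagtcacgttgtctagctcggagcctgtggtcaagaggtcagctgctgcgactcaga
The aligned stretches of Naip2 and Naip5 were identical at 92.1% of 76 columns, and the 2 Naip genes are close paralogs. Aim2 shared less with them, 56.5% of 168 columns with Naip2 and 57.6% of 99 with Naip5, although all 3 are annotated as ORR1E. None of these 4 stretches holds TATAAA or AATAAA on the strand of the gene.

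Changes at MaLR loci went in both directions and were few. Of the MaLR rows, 197 were higher in Trp53_KO in the authors' deposited table at an FDR (adjusted p-value) under 0.05, or 0.316% of the class, where the share over all repeats was 0.388%. In the other direction 220 rows were lower in the authors' deposited table, or 0.352%, against 0.284% of all repeats. Neither share is far from its background. The log2 fold changes in the authors' deposited table had a median of 2.48 among the higher rows (0.51 to 8.24) and of -2.51 among the lower ones (-6.36 to -0.60), while the median over all MaLR rows was 0, with quartiles of -0.76 and 0.50. In each group the 3 rows on either side of the threshold lay at an FDR of 0.026 to 0.049 inside it and of 0.050 to 0.075 outside it, in the authors' deposited table. The table holds no counts per library, so how many reads a row rests on is unknown, and it has no spread over replicates.

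ORR1 was balanced, with 88 rows higher and 88 lower in the authors' deposited table (0.360% each). MT rows divided almost as evenly, 86 higher (0.313%) and 83 lower (0.302%). MLT, the older group, had 23 rows higher (0.218%) and 49 lower (0.464%) in the authors' deposited table. The difference between the groups was not tested, since rows of 1 transcript are not independent. Among the other LTR classes in the authors' deposited table, ERVL, the nearest relatives of MaLR, had 0.194% of rows higher and 0.312% lower. ERVK had 0.987% higher and 0.352% lower, and ERV1 3.47% higher and 1.43% lower. The bar plot of these shares sets the 3 MaLR groups beside the other classes.

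**Figure D1:**
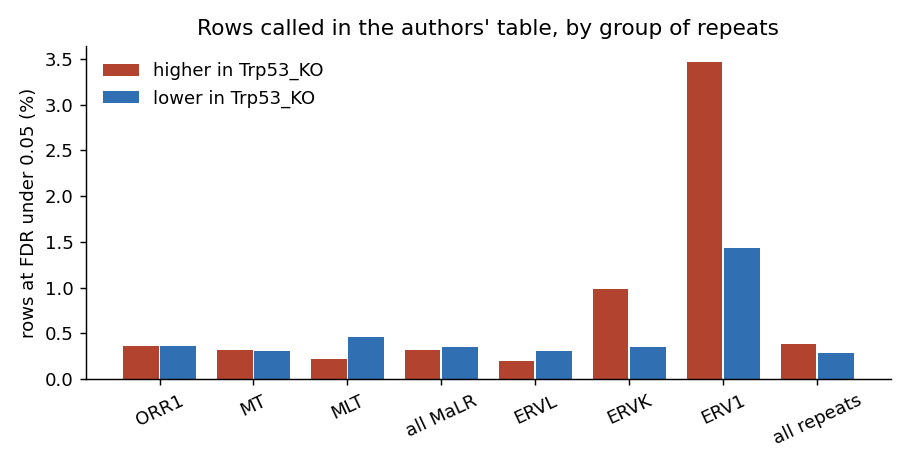
Share of rows (%, vertical axis) higher (red) or lower (blue) in Trp53_KO at the authors' FDR under 0.05, for ORR1, MT, MLT, all MaLR, 3 other LTR classes and all repeats. MaLR bars reach at most 0.464% (MLT lower), and ERV1 reaches 3.47% higher.

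Within the class the LTRs made up 56096 rows and the internal parts, named with -int, 6344. Of the LTR rows 170 were higher (0.303%) and 192 lower (0.342%) in the authors' deposited table, and of the internal rows 27 (0.426%) and 28 (0.441%). The class held 103 subfamilies, 62 of them with 100 rows or more, of which 21 had no higher row and 12 no lower row. By share of higher rows, MTB-int came first with 4 of 107 rows (3.74%), followed by ORR1A1-int with 2 of 148 (1.35%) and ORR1D2-int with 2 of 161 (1.24%). ORR1A4-int had 2 of 203 rows higher (0.985%) and 2 lower, and ORR1A2-int had 3 of 358 higher (0.838%) and 3 lower, all in the authors' deposited table. By share of lower rows, the order began with ORR1A0-int, 2 of 142 rows (1.41%), ORR1B1-int, 4 of 309 (1.29%), and MLT1F2, 3 of 300 (1.0%), with MLT1E2, 2 of 238 (0.840%), in the fifth place after ORR1A4-int. These orders rest on 2 to 4 rows each.

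Most MaLR rows lay inside genes. On the strand of the reads, 44973 rows (72.0%) fell in introns, 3656 (5.86%) touched an exon, 7163 (11.5%) lay within 10 kb after the end of a gene, 974 (1.56%) within 10 kb before a start, and 5674 (9.09%) elsewhere. Called rows were more frequent in exons, at 2.11% in the authors' deposited table, than in introns (0.511%), after genes (0.684%), before genes (0.924%) or elsewhere (0.916%). Over all repeats the shares in the authors' deposited table were 1.82% in exons, 0.379% in introns, 0.769% after genes, 2.10% before genes and 1.70% elsewhere, so a higher share in exons than in introns was not particular to MaLR rows. The 197 higher rows were 34 in exons, 124 in introns, 14 after genes, 4 before genes and 21 elsewhere. For the 220 lower rows these numbers were 43, 106, 35, 5 and 31. With genes on either strand left out, 10908 MaLR rows remained, of which 31 were higher (0.284%) and 50 lower (0.458%) in the authors' deposited table. The same restriction over all repeats left 107342 rows, 0.866% higher and 0.397% lower.

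Most MaLR rows were for the direction opposite to the element, counted by row and not by reads. Of MaLR rows 36.1% were read on the strand of the element, against 45.5% of all repeats. The other LTR classes were below 50% too, with ERVL at 39.5%, ERVK at 43.2% and ERV1 at 43.0%. A retrotransposon that is transcribed from its own promoter would be read on its own strand, but where these reads began was not tested. For MaLR rows inside introns the share was 30.3%, and it was 58.4% for those with no gene within 10 kb on the strand of the reads. Intronic shares by branch ran from 40.2% for MTA to 29.1% for MTE, from 31.3% for ORR1A to 22.6% for ORR1F, and from 28.0% for MLT1A to 10% for MLT1K. The order within a group was not strict, with MTD at 38.4%, ORR1D at 29.7% and MLT1D at 35.6%. Elsewhere every branch with enough rows to be plotted was above 50%, from 51.5% for MTB to 67.2% for MLT1H, as the plot of orientation by branch shows. Among the higher rows that lay elsewhere, 66.7% of the 21 MaLR rows were read on the strand of the element in the authors' deposited table, against 94.2% of 794 rows over all repeats. The rows in a place are not replicates, so these shares are descriptions with no test.

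**Figure D2:**
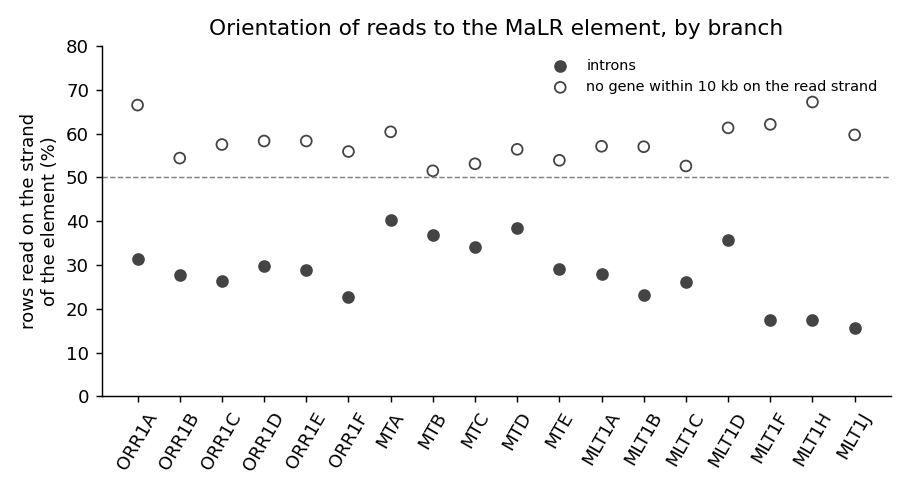
Share of rows read on the strand of the element (%, vertical axis) for branches of ORR1, MT and MLT (horizontal axis), in introns (filled points) and with no gene within 10 kb on the strand of the reads (open points). Every filled point lies below the dashed line at 50% and every open point above it.

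Called MaLR rows that lay in a tested gene mostly changed in the direction of that gene. A host gene is one that overlaps the element on the strand of the reads. Of the 417 called rows, 283 had a host that passed the filter on low counts, and the rest had no tested host. At 264 of these rows (93.3%) the host was called in the same direction by edgeR's quasi-likelihood test with Benjamini-Hochberg adjustment. Counted by gene, 150 of 169 hosts (88.8%) changed the same way, 18 were not called and 1 changed the opposite way. Over all 13651 genes tested, 30.3% were called, 14.1% higher and 16.1% lower in Trp53_KO, and of the 6780 tested genes that hold any MaLR row, 2193 were called (32.3%). The hosts of higher rows were higher for 75 of 84 genes, and those of lower rows lower for 75 of 85. By group, 81 of 87 hosts matched for ORR1, 82 of 92 for MT and 38 of 41 for MLT. For rows that touch an exon 51 of 53 hosts matched, and these rows share reads with the count of the gene. For intronic rows, whose reads lie outside the exons, 118 of 135 hosts matched. The hosts of all other called repeats matched for 731 of 997 genes (73.3%). Counted by row they matched at 2352 of 2653 (88.7%), nearer to the 93.3% of MaLR rows. These differences were not tested. In the 10 kb after a gene, 20 of 22 genes were called in the direction of the row.

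The size of the change also followed the host, as the plot of rows against their hosts shows. Over 276 called rows with 1 tested host, the row's log2 fold change from the authors' deposited table and the host's from edgeR had a Pearson correlation of 0.867 and a Spearman correlation of 0.878. Both come from the same 6 libraries and several rows share a host, so no p-value is given. Only called rows enter, which leaves out most small changes and raises such a correlation. Rows that touch an exon also share reads with the count of the host. Called or not, the 389 MaLR rows in genes higher by a log2 fold change above 2 had a median of 2.55 in the authors' deposited table, with 61 called higher (15.7%) and 0 lower. The 768 rows in genes between 1 and 2 had a median of 1.20, with 5.47% higher. In the 41557 rows of genes between -1 and 1, the shares in the authors' deposited table were 0.101% higher and 0.135% lower, and the median was -0.01. In genes between -2 and -1 the median of 1143 rows was -1.08 with 3.94% lower, and in genes below -2 that of 443 rows was -1.75 with 8.58% lower.

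**Figure D3:**
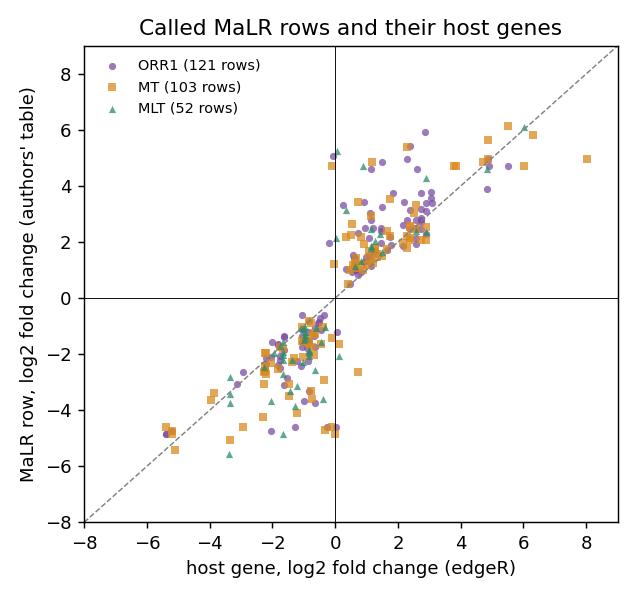
Log2 fold change (Trp53_KO against Trp53_WT) of each called MaLR row in the authors' table (vertical axis) and of its host gene by edgeR (horizontal axis), for 121 ORR1, 103 MT and 52 MLT rows. Rows of host genes with at most 3 counts summed over 1 genotype are left out, the dashed line marks equal change, and nearly all rows lie in the quadrants where row and host changed the same way.

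Single genes held many of the called rows. Of the 169 hosts 113 had 1 called row, 26 had 2 and 30 had 3 or more, and 0 had called rows in both directions. Hspa12a, a distant member of the HSP70 family, held 7 called rows of 19, all higher in the authors' deposited table (2.08 to 4.28). The gene itself stood at 185, 184 and 198 CPM in Trp53_KO and 26.2, 24.6 and 25.6 in Trp53_WT. The long noncoding RNA gene Mir99ahg held 7 of 14 (2.06 to 3.75) and Tfcp2l1 7 of 15 (2.09 to 5.42), again all higher in the authors' deposited table. Ptprd, a receptor tyrosine phosphatase, held 6 of 35 and Vstm5, which codes for a membrane protein with an immunoglobulin-like domain, 6 of 7. The called rows of Ptprd were higher (1.92 to 3.33) and those of Vstm5 lower (-2.71 to -1.58) in the authors' deposited table. Gata4, a transcription factor of the developing heart and gonad, held 3 called rows of 5, all higher, and stood at 140, 124 and 137 CPM in Trp53_KO and 30, 28.7 and 31.1 in Trp53_WT.

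Called rows also lay close to one another. Of the 417 called MaLR rows 298 (71.5%) had another called repeat row of the same sign and read strand within 10 kb in the authors' deposited table, 2 had one of the opposite sign, and of the rows not called 3.64% had a called neighbour of the same sign. Called MaLR rows joined in this way formed 312 runs, 246 of them single rows and 21 of 3 rows or more. The largest, 9 rows at chr14:54076873-54095439, held copies of the subfamilies MLT1F2, ORR1D1, MLT1A1, ORR1B2 and MTE2b, all lower in the authors' deposited table (-5.99 to -2.57), on the + strand and in no tested host. It lies after Trdv4, a T cell receptor segment, which fell from 3.98, 3.66 and 4.50 CPM in Trp53_WT to 0.255, 0.362 and 0.372 in Trp53_KO (log2 fold change -3.60 ± 0.23, SE; edgeR with Benjamini-Hochberg, adjusted p = 2.7e-06). At chr11:20956887-20965110, 4 rows were lower in the authors' deposited table (-2.86 to -2.73), also in no tested host. At chr17:42921656-42933899, 4 rows were higher (3.68 to 6.23), again in no tested host, in the authors' deposited table.

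Among ORR1 loci, the change with the lowest FDR was at an ORR1D2 element at chr2:132867630-132867914, 391 bases after the end of Lrrn4, a marker of mesothelium and ovarian surface epithelium. The row had a log2 fold change of 8.24 in the authors' deposited table (FDR 1.3e-28). Lrrn4 itself stood at 65.4, 64.8 and 66.4 CPM in the 3 Trp53_KO libraries and at 0.135, 0.247 and 0.322 in the 3 Trp53_WT libraries. The groups were far apart, and edgeR gave a log2 fold change of 8.04 ± 0.15 (SE; Benjamini-Hochberg adjusted p = 1.1e-09). In introns of Adamts16, a secreted metalloprotease gene, an ORR1F at chr13:70741393-70741762 was read on the strand opposite to the gene. It was higher by 7.65 in the authors' deposited table (FDR 1.0e-23). The element lies 8186 bases after the end of Gm36607, an antisense gene model on the strand of those reads. Adamts16 stood at 13.6, 12.3 and 15.9 CPM in Trp53_KO and at 0.743, 0.346 and 0.375 in Trp53_WT, so both strands were higher there. An ORR1C1-int at chr10:125924455-125925332 had no gene within 10 kb on its strand and was higher by 5.08 in the authors' deposited table (FDR 4.7e-11).

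Several of the strongest rows lay in 3′ UTRs. Tfcp2l1, a transcription factor of pluripotent and epithelial cells, carries an ORR1E at chr1:118678046-118678399, pieces of an MTEa at chr1:118681233-118681370 and chr1:118681956-118682055, and an MTB at chr1:118681371-118681737 that begins at the base after the first MTEa piece. In the authors' deposited table these rows were higher by 2.48 (FDR 7.4e-28), 2.56, 2.55 (FDR 1.5e-18 for both) and 2.13 (FDR 2.7e-11). All 4 were read opposite to the element, on the strand of the gene. Tfcp2l1 stood at 186, 198 and 198 CPM in Trp53_KO and 43.9, 33.5 and 35.0 in Trp53_WT, which do not overlap. The gene rose by a log2 fold change of 2.38 ± 0.10 (SE; edgeR with Benjamini-Hochberg, adjusted p = 1.8e-07). Fads6, named as a fatty acid desaturase, has an ORR1B2 in its 3′ UTR (chr11:115279898-115280207), higher by 3.58 in the authors' deposited table. Fads6 stood at 35.0, 33.6 and 39.0 CPM in Trp53_KO and 4.72, 4.35 and 3.86 in Trp53_WT.

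On the lower side, Lgr6, an R-spondin receptor that marks stem cells, has an ORR1A2 in its 3′ UTR (chr1:134984682-134985008) with a log2 fold change of -3.07 in the authors' deposited table (FDR 1.2e-20). Lgr6 stood at 6.93, 6.94 and 5.11 CPM in Trp53_KO and at 62.0, 52.6 and 50.1 in Trp53_WT. The groups did not overlap, and the gene fell by 3.12 on the log2 scale (SE 0.14; edgeR with Benjamini-Hochberg, adjusted p = 1.9e-07). Tnfrsf23, a decoy receptor for TRAIL, has an ORR1B1 in its 3′ UTR (chr7:143668061-143668389), lower, at -2.15 in the authors' deposited table (FDR 2.5e-18). Its own level was 12.6, 9.84 and 9.57 CPM in Trp53_KO and 62.8, 45.5 and 39.4 in Trp53_WT. An ORR1A0-int at chrX:8860720-8862492, read on its own strand with no gene within 10 kb on that strand, was lower, at -2.78 in the authors' deposited table (FDR 3.4e-13).

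Among MT loci on the lower side, the first were intronic copies in 2 genes of chromosome 4 that lie on opposite strands. Trit1 modifies tRNA, and its introns hold an MTA_Mm at chr4:123024155-123024549 whose left edge abuts an MTD at chr4:123023874-123024154. They were lower, at -2.60 (FDR 2.0e-11) and -2.42 (FDR 1.6e-08) in the authors' deposited table. A second MTA_Mm, at chr4:123036100-123036484, had -1.95 there (FDR 1.6e-09, authors' deposited table). Trit1 stood at 22.3, 24.0 and 25.2 CPM in Trp53_KO and 114, 118 and 107 in Trp53_WT, and fell by 2.24 on the log2 scale (SE 0.08; edgeR with Benjamini-Hochberg, adjusted p = 5.6e-08). Cap1, which codes for an actin-binding protein, holds an intronic MTC at chr4:122880481-122880858 with -2.70 in the authors' deposited table (FDR 2.1e-10). Cap1 stood at 199, 190 and 194 CPM in Trp53_KO and 888, 889 and 936 in Trp53_WT, again with no overlap. An MTD in the 3′ UTR of Il18rap, a subunit of the interleukin-18 receptor (chr1:40551364-40551763), had -1.73 in the authors' deposited table (FDR 1.9e-09). On the higher side, besides the Tfcp2l1 rows, an MTEa in an exon of Hspa12a (chr19:58819671-58820040) had 2.53 (FDR 3.0e-12) and an MTC at chr6:3331064-3331309, near the gene models Gm20559 and Gm43197, had 2.90 (FDR 2.0e-11) in the authors' deposited table.

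MLT loci were led by an MLT1B in the 3′ UTR of Fuca2, an alpha-L-fucosidase gene (chr10:13515146-13515438), higher by 2.41 in the authors' deposited table (FDR 5.8e-27). Fuca2 stood at 38.8, 39.2 and 36.3 CPM in Trp53_KO and 7.16, 6.13 and 5.90 in Trp53_WT. It rose by a log2 fold change of 2.58 ± 0.10 (SE; edgeR with Benjamini-Hochberg, adjusted p = 8.3e-08). An MLT1C in the 3′ UTR of Sema5a, a semaphorin gene (chr15:32269666-32270082), was higher by 6.10 in the authors' deposited table (FDR 2.9e-04). Sema5a stood at 61.4, 59.8 and 63.0 CPM in Trp53_KO and at 1.01, 1.24 and 0.590 in Trp53_WT. The other higher MLT rows of lowest FDR in the authors' deposited table were an MLT1A0 with no gene near it (chr4:84080897-84081195, 2.97), an MLT1O in 4833415N18Rik (1.22) and an MLT1G1 in Stau1 (5.25).

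Lower MLT rows began with an MLT1B in the 3′ UTR of Vnn1, a pantetheinase gene (chr10:23905054-23905384), at -1.71 in the authors' deposited table (FDR 2.8e-18). Vnn1 stood at 94.5, 87.6 and 84.9 CPM in Trp53_KO and 314, 289 and 293 in Trp53_WT, and fell by 1.75 on the log2 scale (SE 0.07; edgeR with Benjamini-Hochberg, adjusted p = 9.7e-08). An MLT1A at chr11:20956887-20957119, in the run of 4 on chromosome 11, had -2.76 in the authors' deposited table (FDR 1.7e-16). In an intron of Vstm5, MLT1-int pieces at chr9:15242130-15242908 and chr9:15241753-15242103 had -1.93 and -2.21 in the authors' deposited table. An MLT1D in the 3′ UTR of Tnfaip2 (chr12:111454271-111454507), a gene induced by tumour necrosis factor, had -1.07 there (FDR 1.4e-08, authors' deposited table). The plot of host levels by library shows these genes beside those that start in a MaLR element.

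**Figure D4:**
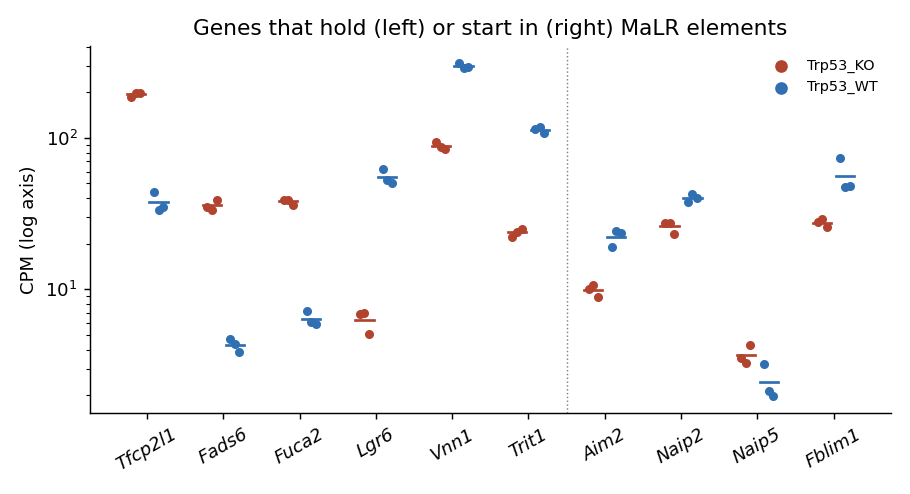
CPM on a log axis (vertical), with 1 point per library and a bar at the mean of 3 libraries. Trp53_KO is in red and Trp53_WT in blue. Left of the dotted line are 6 genes that hold strongly changed MaLR rows, right of it 4 with a RefSeq start in a MaLR element. The groups of 3 do not overlap for any of the 10 genes, and the gap is narrowest for Naip5.

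A pair of rows beside p53 targets was chosen after their values were seen. An MLT1L at chr4:150063260-150063402, lower, at -3.09 in the authors' deposited table (FDR 6.9e-07), lies 5052 bases before the annotated gene Mir34a (chr4:150068454-150068555). It also lies within 10 kb after the end of another gene on the strand of its reads. Its reads ran on the strand of Mir34a and the element itself lies opposite. An MTA_Mm in an intron of Mdm2 (chr10:117700811-117701205), the gene of the ubiquitin ligase that degrades p53, was lower, at -1.53 in the authors' deposited table (FDR 7.1e-06). Mdm2 stood at 82.9, 87.5 and 78.8 CPM in Trp53_KO and 164, 177 and 174 in Trp53_WT.

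Only 19 called rows with a tested host did not share its direction and call. The highest change among the 19 was that of the MLT1G1 in an intron of Stau1, which codes for a double-stranded RNA-binding protein (chr2:166962576-166962795). It had a log2 fold change of 5.25 in the authors' deposited table (FDR 1.8e-03), while Stau1 stood at 43.0, 43.1 and 42.3 CPM in Trp53_KO and 47.3, 38.3 and 36.7 in Trp53_WT. Those groups overlap, and edgeR gave 0.07 ± 0.10 (SE; Benjamini-Hochberg adjusted p = 0.63). An ORR1D1 in an intron of Gpr107 was higher by 5.06 in the authors' deposited table (FDR 0.019), with an edgeR fold change of -0.07 for the gene. The only host with an opposite call was Gtf2f2, a subunit of the general transcription factor TFIIF, which rose by 0.73 ± 0.09 (SE; edgeR with Benjamini-Hochberg, adjusted p = 1.7e-04), while its MTE2b row had -2.64 in the authors' deposited table (FDR 0.041). Loci read in both directions numbered 2424, and 1 of them was called in both.

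Genes that start in a MaLR element were taken from RefSeq by their listed starts alone. Of 32851 promoter windows (250 bases before a start to 50 after), 125 had the start inside a MaLR locus of the table, for 117 genes. The element lay on the strand of the gene at 91 starts (72.8%) and opposite at 34, and ORR1 gave 58 starts, MT 47 and MLT 20. TATAAA on the strand of the gene occurred in 9.60% of these windows and in 8.32% of all windows, and AATAAA in 16% and 11.3%. The exact p53 half-site pattern, read the same on both strands, was in 12% against 8.36% of all windows, and a pair of abutting half-sites with a few mismatches in 0 of 125 against 0.572%. These matches are letters in a window and may overlap one another. Median GC content was 48.7% against 52.7%.

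Only 30 of the 117 genes were in the count table, and 26 passed the filter on low counts. Of those 26, 12 were called (46.2%, against 30.3% of all genes tested), 5 higher and 7 lower in Trp53_KO, with a median log2 fold change of 0.05 against -0.02 over all tested. With 1 library left out at a time the number ranged from 9 to 16, the highest without Trp53_WT replicate 1. Among the 8 tested genes with no other listed start, 4 were called, 1 higher and 3 lower. In GENCODE, though, some of these gene models begin elsewhere. Those of Aim2 (from chr1:173350879, + strand), Arel1 (from chr12:84970900, - strand) and Naip6 (from chr13:100317674, - strand) begin upstream of these starts. Those of Naip5 (from chr13:100246323, - strand) and Zfp235 (from chr7:24134169, + strand) begin downstream of the element. Many of the other tested genes have another listed start. For all such genes, and for those named here, the counts do not show from which start the reads came.

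Aim2 fell in the knockout, from 19.0, 24.3 and 23.4 CPM in Trp53_WT to 10.1, 10.7 and 8.88 in Trp53_KO. The groups did not overlap, and the log2 fold change was -1.17 ± 0.12 (SE; edgeR with Benjamini-Hochberg, adjusted p = 6.7e-05). Naip2 fell from 37.9, 42.4 and 40.3 CPM to 27.4, 27.4 and 23.3, a log2 fold change of -0.63 ± 0.09 (SE; edgeR with Benjamini-Hochberg, adjusted p = 5.9e-04). Naip5, whose ORR1E shares the 34-base run with that of Naip2, was at 3.24, 2.13 and 1.98 CPM in Trp53_WT and 3.52, 3.26 and 4.31 in Trp53_KO. Its log2 fold change of 0.62 ± 0.21 (SE) did not pass (edgeR with Benjamini-Hochberg, adjusted p = 0.054), and without Trp53_WT replicate 1 it was 0.85 and passed (edgeR, adjusted p = 0.003). Counts of the Naip paralogs are uncertain, since reads from near-identical stretches can be divided between them. Fblim1 fell from 73.9, 47.1 and 47.9 CPM to 27.7, 29.1 and 25.8 (log2 fold change -1.03 ± 0.16, SE; edgeR with Benjamini-Hochberg, adjusted p = 1.1e-03). Zfp111, a zinc finger gene with 1 of its 2 listed starts in an MTC, rose from 5.20, 5.0 and 4.02 CPM to 13.7, 13.6 and 10.6 (1.41 ± 0.15, SE; edgeR with Benjamini-Hochberg, adjusted p = 7.4e-05).

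Where the authors' deposited table had a row on the strand of a tested gene, the element at its start was called at 1 gene. Apart from these, the ORR1B1 in the 3′ UTR of Tnfrsf23 also holds the start of E230032D23Rik, which was not tested. That locus was called on the strand of Tnfrsf23, opposite to E230032D23Rik. The MLT1F1 of Fblim1, read on the strand of the gene, had a log2 fold change of -2.29 in the authors' deposited table (FDR 3.2e-06). The ORR1E rows of Aim2, Naip2 and Naip5 had -0.31, -0.70 and 1.46 in the authors' deposited table, none past the FDR (0.96, 0.69 and 0.64). The MTC of Zfp111 had 0.17 in the authors' deposited table (FDR 1).

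Genes that silence or activate these elements are given as context. Of 29 tested genes for repeat silencing, 10 were higher and 2 lower in Trp53_KO, with a median log2 fold change of 0.12 against -0.02 over all genes tested, beside 14.1% and 16.1% of all genes called. Daxx, a histone chaperone (0.43 ± 0.09, SE), and the DNA methyltransferase gene Dnmt3a (0.45 ± 0.09, SE) were higher, and Suv39h1, a histone H3K9 methyltransferase gene, was lower (-0.43 ± 0.08, SE; edgeR with Benjamini-Hochberg, adjusted p of 0.0069, 0.0031 and 0.0018). The other called members were Cbx1, Chaf1a, Dnmt1, Dnmt3b, Kdm1a, Morc2a, Rif1 and Trim28, higher by 0.20 to 0.52, and Atrx, lower by 0.26 on the log2 scale. Each of these 9 lost its call when some library was left out (edgeR with Benjamini-Hochberg). Without Trp53_KO replicate 1 that held for Atrx, Chaf1a, Dnmt1, Morc2a and Trim28 (adjusted p of 0.11, 0.059, 0.13, 0.11 and 0.079, edgeR). Without Trp53_KO replicate 2 it held for Cbx1 (0.056), without Trp53_KO replicate 3 for Atrx, Dnmt1, Dnmt3b and Trim28 (0.061, 0.12, 0.057 and 0.058). Without Trp53_WT replicate 2 it held for Atrx, Dnmt1, Kdm1a, Morc2a and Trim28 (0.083, 0.093, 0.060, 0.093 and 0.070), and without Trp53_WT replicate 3 for Atrx, Dnmt1, Morc2a and Rif1 (0.062, 0.082, 0.088 and 0.052). Setdb1, the methyltransferase recruited with Trim28, had 0.01 ± 0.06 (SE).

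Among 14 activators of LTRs in oocytes, early embryos and endoderm, 5 were tested and 2 were called, Gata4 (2.16 ± 0.08, SE) and Gata6 (0.63 ± 0.07, SE), both higher. Over all genes tested, 30.3% were called and 14.1% were called higher. The embryonic gene Zscan4c was at 1.43, 0.845 and 0.585 CPM in Trp53_KO and 0.270, 0 and 0.536 in Trp53_WT (1.85 ± 0.67, SE; edgeR with Benjamini-Hochberg, adjusted p = 0.065). It passed without Trp53_WT replicate 1 (adjusted p = 0.032, edgeR) and without Trp53_WT replicate 3 (adjusted p = 0.022, edgeR). With all 6 libraries Zscan4c passed in the DESeq2 Wald test (adjusted p = 0.037) and in edgeR with only genes of 0 counts removed (adjusted p = 0.0011). In the other settings Zscan4c did not pass. Other members were too low to be tested. Zscan4d had 25 counts in Trp53_KO and 4 in Trp53_WT, Zscan4f 38 and 13, and Dppa2 0 and 6. Duxf3 and Obox3 each had 1 and 0. Dppa4, Obox5 and Elf5 had 0 counts in every library.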

How the data were processed

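RNA was measured in 3 Trp53_KO and 3 Trp53_WT libraries of ID8 cells. The authors' deposited gene table holds raw counts. The authors' deposited repeat table holds, per locus and read direction, a fold change taken as log2 and an FDR (adjusted p-value), with no values per library. Per the submitters' processing notes, STAR, featureCounts, edgeR and the build mm10 were used. Their versions were not given in the sources used here, nor was the treatment of reads that map to several places. The log base was checked on exonic rows: their values divided by the host's log2 fold change had a median of 1.03 over 39 rows. The suffix of a row was read as the strand of the reads, because in exons it matched the gene in 87.0% of 2836 rows, against 38.3% for the repeat's own strand.

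Genes were tested with edgeR 4.0.16 (R 4.3.3, limma 3.58.1): filterByExpr, TMM, quasi-likelihood test, Benjamini-Hochberg over all genes tested, threshold 0.05, checked on simulated counts. DESeq2 1.42.0, other scalings and filters, a replicate block and each library left out were alternatives. Places and hosts came from GENCODE M21 (GRCm38) with bedtools 2.31.1, and alignments from Biopython 1.88. Loci were named by rule: the 5 higher and 5 lower rows of lowest FDR in each group, with their hosts, and subfamilies of at least 100 rows by share. Sequence was read only in RefSeq promoter windows, since the genome sequence was not used here. The members and lists were chosen with earlier results of these data known.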

Additional observations from a re-analysis of the deposited data

How the results depend on the processing

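Counts of called rows moved with the FDR threshold and the place of the rows. At an FDR under 0.01 the higher and lower rows numbered 118 and 121 for all MaLR, 57 and 49 for ORR1, 48 and 43 for MT, and 13 and 29 for MLT. At an FDR under 0.1 the counts that moved by over 1.5 times were 307 higher MaLR rows, 134 lower ORR1 rows, 134 higher MT rows and 47 higher MLT rows. Outside annotated genes there were 31 higher and 50 lower MaLR rows, 12 and 20 for ORR1, 17 and 21 for MT, and 2 and 9 for MLT. Hosts called in the direction of their rows numbered 150 of 169, 145 to 152 with 1 library left out at a time, and 99 of 102 for rows at an FDR under 0.01. Genes called in all numbered 4130, and 2977 to 4984 with 1 library left out, the highest without Trp53_WT replicate 1. Genes that start in a MaLR element and were called numbered 12, 9 to 16 with 1 library left out and 4 among the 8 with no other listed start. The last setting, and the host named in the authors' annotation (166 of 193 matching), were chosen after seeing the data. Replicate numbers did not pair the libraries: the deviations of same-numbered libraries correlated at -0.049, 0.13 and -0.141. With a replicate block, 151 hosts matched, 3806 genes were called and 11 of those that start in a MaLR element. DESeq2 called 3739 genes. Of 67 called single genes followed, 12 lost the call in some setting, 10 others gained one and 0 changed sign. The causes were not tested, and the depth behind single rows is unknown.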
